A study of Gallus gallus with 6 samples.

Results

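Splicing factors and heterogeneous nuclear ribonucleoproteins (hnRNPs) were examined in brains of chick embryos (Gallus gallus), female against male. Members were all genes whose symbol in the platform annotation starts with HNRNP, SRSF, SFRS, SF3A, SF3B, SNRP or PRPF, with HNRNPK and HNRNPKL set aside. This gave 48 genes of the 13008 that the array names singly, with 126 probe sets. They comprised 11 hnRNP proteins, 11 SR proteins (SRSF symbols, none under the older SFRS), 10 proteins of the small nuclear ribonucleoproteins (snRNPs), 7 subunits of SF3a and SF3b and 9 PRPF proteins. Each gene was read from its brightest probe set, the one of highest mean signal over all arrays.

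Brain was taken at stage 29, reached after 6 to 6.5 days in the egg according to the labels. Embryos were sexed genetically and pooled by sex, 5 to 8 embryos a pool. There were 3 female and 3 male pools, each on 1 Affymetrix chicken array, and the labels name no treatment, altered allele or strain for either sex. A pool averages its embryos, so that p-values measure the spread between pools.

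Protein-coding genes are transcribed with introns, which the spliceosome removes. It is assembled from snRNPs, most of them a small nuclear RNA wrapped by a ring of Sm proteins and joined by further proteins. The U1 particle marks the start of an intron, and U2 with SF3a and SF3b takes the branch point. The tri-snRNP of U4, U6 and U5 brings in some of the PRPF proteins. SR proteins bind exons and help the machinery choose a splice site, while hnRNP proteins coat the transcript and often oppose that choice. In the developing brain, shifts in these regulators accompany the change from progenitor to neuron. All are general cell machinery, so that a brain pool measures them over all its cells at once.

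Signals are log2 units, where a difference of 1 is a doubling. For the sex difference, each probe set was set only against itself in other pools. Levels of different genes were used to mark background, rank brightness, sum markers and find genes of like signal. The medians of the 6 arrays lay between 4.89 and 4.92. As a mark of background the 95th percentile of the mean signal of 689 viral and other non-chicken probe sets was used, 4.21, and 47 of the 48 members lay above it by their brightest probe set. The exception was SNRPF, a member of the Sm ring, at a mean of 3.40. Of 9 neuron markers 8 lay above that background (GAP43 did not), as did all 9 progenitor markers, while 4 of 7 muscle and 4 of 5 pigment cell markers lay at or below it. The log2 of the summed progenitor markers was 13.96 to 14.09 in female and 13.90 to 13.97 in male pools, that of the neuron markers 14.00 to 14.31 and 13.86 to 14.06, that of 8 markers of dividing cells 12.92 to 12.96 and 12.95 to 13.12, and that of 5 red blood cell markers 13.60 to 14.22 and 13.94 to 14.44. The summed blood vessel markers ran from 7.58 to 7.72 and from 7.51 to 7.84, pigment cell markers from 6.53 to 6.65 and from 6.54 to 6.70, and muscle markers from 6.96 to 7.07 and from 7.14 to 7.15. In pooled tissue, fewer cells of a type and less RNA per cell cannot be told apart.

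None of the 48 splicing factor genes passed an adjusted p under 0.05 (limma, Benjamini-Hochberg over 37693 probe sets, n = 3 pools per sex), where 0.0491% of 12228 autosomal genes did, and all 48 members are autosomal. The smallest adjusted p among them was 0.243. Without adjustment, 8 members had a p under 0.05, where the background was 11.1% of autosomal genes. Of the 8, PRPF38A and SNRPGP15 were higher in males (background 5.5%) and PRPF8, SF3A1, SF3B4, SRSF6, HNRNPR and HNRNPU lower (background 5.59%). Differences (male minus female) ran from -0.45 to 0.27 with a median of -0.00, and 24 lay on each side of 0, against a median of 0.01 over autosomal genes. Their median size was 0.0901, near the 0.106 of autosomal genes at or above the median signal. At an unadjusted p under 0.05 (limma), the 2 of 48 higher in males were near their background share. The 6 of 48 lower in males were a larger share than the background of 5.59%. Members share the same arrays, and this excess was not tested.

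The arrays bounded the differences closely for most of these genes. For 43 of the 48 the 95% interval of the difference lay within 0.5 log2 units of 0 (1.41-fold), and for all 48 within 1. The 43 include SNRPF, at background, and PRPF4, near it at a mean of 4.43. The intervals of these genes say little about their transcripts. Of 8707 autosomal genes at or above the median signal, 6906 lay within 0.5 and 8517 within 1. Of all 12228 autosomal genes, 10153 lay within 0.5 and 12023 within 1. A close bound was thus common to most genes on these arrays. The 5 with a wider interval were PRPF4B (-0.97 to 0.36), PRPF8 (-0.78 to -0.11), SF3B5 (-0.43 to 0.66), SF3A1 (-0.57 to -0.02) and PRPF38B (-0.51 to 0.05). All male pools lay above all female pools for 6 members and below them for 6, where 10.5% and 7.28% of autosomal genes did so.

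**Figure D1:**
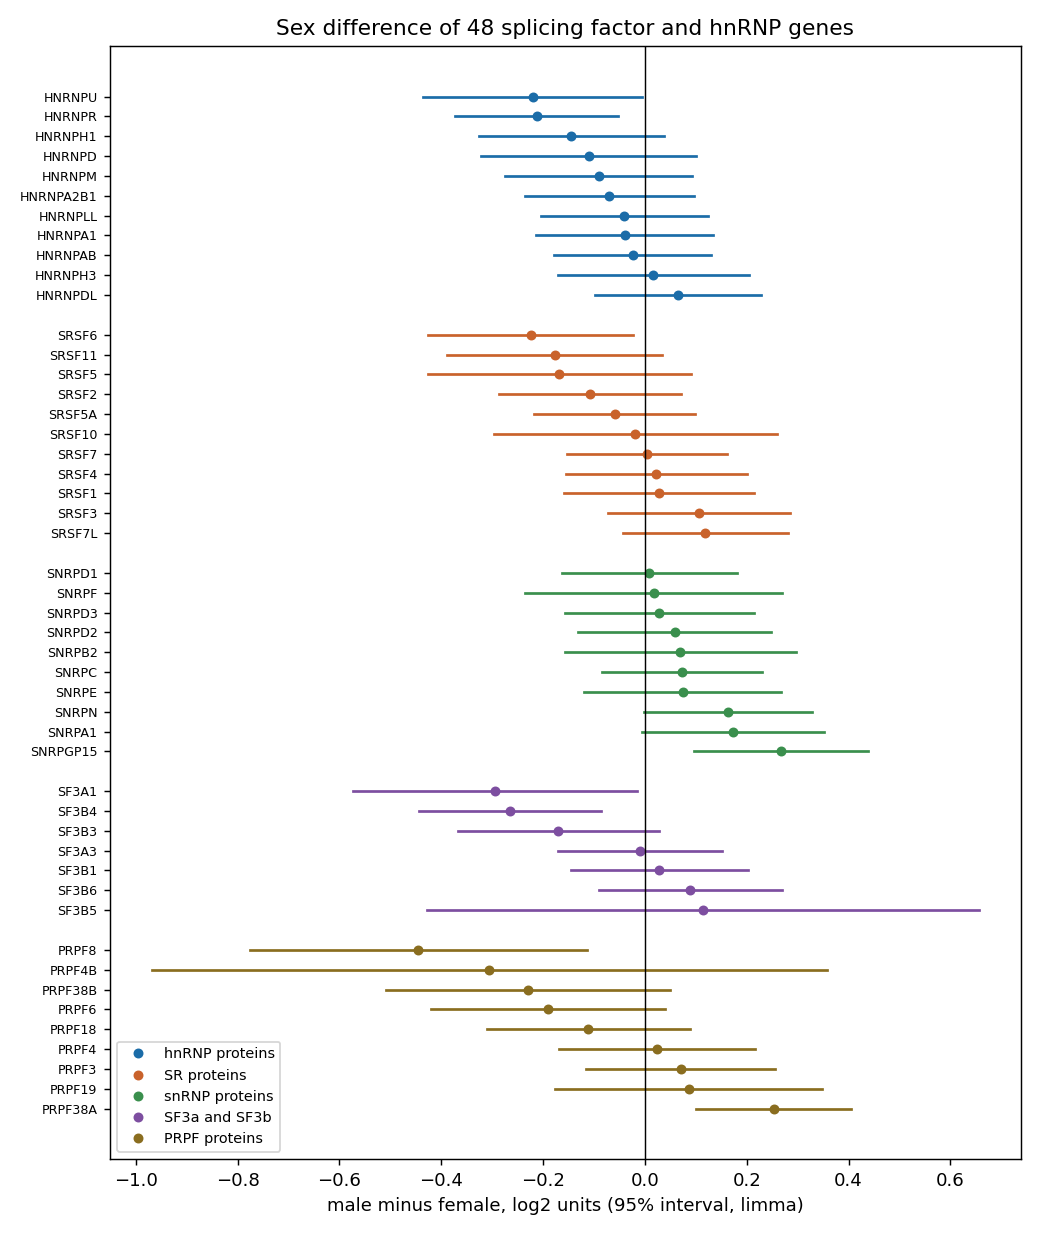
Male minus female difference of the 48 genes in log2 units (x axis), ordered within the 5 roles (y axis, colours). Points are limma estimates from 3 female and 3 male pools and lines their 95% intervals. The 10 snRNP proteins lie to the right of 0 (SNRPF among them is at background), where 53.2% of autosomal genes lie. To the left lie 9 of the 11 hnRNP proteins, and PRPF8 lies furthest left at -0.45.

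The hnRNP proteins, which bind nascent transcripts, had differences below 0 in 9 of 11 genes, where 5717 of 12228 autosomal genes did. Their median was -0.07, with a range of -0.22 to 0.06, and none passed. Over the 13 alternatives 1 to 3 of the 11 lay above 0. The median was -0.16 by the probe set of smallest p. HNRNPU, a scaffold protein of the nucleus, had signals of 10.69, 10.76 and 10.85 in female pools 1 to 3 and 10.57, 10.40 and 10.67 in male pools 1 to 3. Every male pool lay below every female pool, by a small margin between male pool 3 and female pool 1. The difference was -0.22 (SE 0.09, limma adjusted p = 0.466). Its other 2 probe sets gave -0.22 and -0.14, and the brightest gave -0.15 when male pool 2 was dropped.

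HNRNPR, which takes part in transport of mRNA into axons in mouse motor neurons, had 10.51, 10.58 and 10.49 in female pools and 10.28, 10.30 and 10.35 in male pools. The groups did not overlap and the spread within each was small, with SDs of 0.05 and 0.03. Its difference was -0.21 (SE 0.07, limma adjusted p = 0.344), read from its single probe set. HNRNPH1, which binds runs of G, gave 11.42, 11.26 and 11.35 in female pools and 11.16, 11.15 and 11.28 in male pools. Here male pool 3 lay above female pool 2, and the difference was -0.14 (SE 0.08, limma adjusted p = 0.577), or -0.05 by the mean over its probe sets.

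HNRNPA1, a classical repressor of exons, gave 12.27, 12.16 and 12.28 in female pools and 12.23, 12.13 and 12.24 in male pools. The sexes overlapped, with a difference of -0.04 (SE 0.07) and a 95% interval of -0.21 to 0.13. It ran from -0.08 to -0.00 when 1 pool was dropped and was -0.18 by the mean over probe sets. HNRNPA2B1, its relative, gave -0.07 (SE 0.07), the RNA-binding proteins HNRNPAB and HNRNPM gave -0.02 and -0.09, HNRNPD, known as AUF1 for its binding to AU-rich mRNA, gave -0.11, and HNRNPLL, which directs splicing of CD45 in human and mouse lymphocytes, gave -0.04. The 2 genes above 0 were HNRNPDL at 0.06 and HNRNPH3 at 0.02.

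The SR proteins, which carry RNA recognition motifs and a tail of arginine and serine repeats, were divided, with 5 genes above and 6 below 0 and a median of -0.02. That median was -0.07 when female pool 2 or male pool 3 was dropped, the latter with 3 above and 8 below 0. SRSF6 had 11.68, 11.59 and 11.64 in female pools and 11.56, 11.35 and 11.32 in male pools. All male pools lay below all female pools, with male pool 1 close to the lowest female pool. The difference was -0.22 (SE 0.09, limma adjusted p = 0.430), and its second probe set gave -0.19.

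SRSF1, a founding member of the family, had 11.91, 12.00 and 11.96 in female pools and 11.87, 11.99 and 12.08 in male pools. Its groups overlapped fully, with a difference of 0.03 (SE 0.08) and an interval of -0.16 to 0.21. It ran from -0.02 to 0.08 when 1 pool was dropped. SRSF3, the smallest of the family, gave 12.03, 11.88 and 11.96 in female pools and 12.02, 12.03 and 12.14 in male pools. The difference was 0.11 (SE 0.08, limma adjusted p = 0.684), and all 4 probe sets of this gene gave 0.10 to 0.11. It was 0.07 when female pool 2 or male pool 3 was dropped. SRSF7, which also serves mRNA export, varied least of the 48 genes over the 6 pools and was singled out after its values were seen. It had 10.37, 10.43 and 10.41 in female and 10.36, 10.43 and 10.43 in male pools, a range of 0.07.

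SRSF7L, which RefSeq keeps apart from SRSF7 and lists with the synonym SFRS7, gave 11.91, 11.82 and 11.83 in female pools and 11.98, 12.01 and 11.93 in male pools. All male pools lay above all female pools, and the difference of 0.12 (SE 0.07) did not pass (limma adjusted p = 0.606). SRSF11, which acts on neuronal microexons in mammals, gave 8.85, 9.12 and 9.10 in female and 8.87, 8.85 and 8.82 in male pools. Female pool 1 lay among the males, and the difference was -0.18 (SE 0.09, limma adjusted p = 0.554). SRSF2, known as SC35 from nuclear speckles, gave -0.11 and SRSF5 -0.17, while SRSF4, SRSF5A and SRSF10 lay between -0.06 and 0.02.

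The snRNP proteins were the one role with every difference on the same side of 0. All 10 lay above it, with a median of 0.07 and a range of 0.01 to 0.27, where 53.2% of autosomal genes did. One of them, SNRPF, was at background, so that only the other 9 carry a reading. None passed, and 4 of the 10 had all male pools above all female pools, where 10.5% of autosomal genes did. The side of 0 held for all 10 when the arrays were shifted to one median, but the count above 0 was 7 when female pool 2 was dropped and 8 when male pool 3 was. It was 9 when any of female pool 1, male pool 1 or male pool 2 was dropped or arrays were weighted, and 8 by the probe set of smallest p or the mean over probe sets.

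Among the 7 proteins of the Sm ring, the median was 0.06. SNRPGP15, which RefSeq lists with the synonym SNRPG, the G protein of the ring, had 10.46, 10.30 and 10.37 in female pools and 10.62, 10.68 and 10.64 in male pools. The male pools stood clear of the females, with a difference of 0.27 (1.20-fold, SE 0.07, limma adjusted p = 0.275), the largest above 0 among the members by the brightest probe set, and 0.14 by the mean over probe sets. SNRPN, listed with the synonym SNRPB for the B protein of the ring, had 11.15, 11.03 and 11.16 in female pools and 11.27, 11.28 and 11.28 in male pools. These groups did not overlap either, and the difference was 0.16 (SE 0.07, limma adjusted p = 0.483).

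SNRPE, another ring protein, gave 11.03, 10.92 and 11.14 in female pools and 11.03, 11.13 and 11.15 in male pools, with overlap. Its difference was 0.07 (SE 0.08, limma adjusted p = 0.807). It was 0.02 when female pool 2 was dropped, 0.13 when female pool 3 was, and -0.10 in its dimmer probe set. The ring proteins SNRPD1, SNRPD2 and SNRPD3 gave 0.01, 0.06 and 0.03, and SNRPF, at background, 0.02. For SNRPD3 the second probe set, nearly as bright at a mean of 10.52 against 10.78, gave -0.06. Another 2 probe sets, which the platform annotation gives to a member together with a second gene (SNRPGP15 in one, PRPF3 in the other), were left out.

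The proteins particular to 1 particle followed the same side. SNRPA1, the A' protein of U2, had 10.36, 10.31 and 10.42 in female and 10.45, 10.62 and 10.54 in male pools. All male pools lay above the females, with a difference of 0.17 (SE 0.08, limma adjusted p = 0.494), or 0.11 by the mean over its probe sets. Its U2 partner SNRPB2 gave 0.07 (SE 0.10), and SNRPC, which helps U1 to recognise the donor splice site, gave 0.07 (SE 0.07).

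SF3a and SF3b, which hold U2 at the branch point, had 3 genes above and 4 below 0, with a median of -0.01. That median was 0.09 by the probe set of smallest p, 0.04 by the mean over probe sets and -0.15 when female pool 2 was dropped. SF3B4 had 7.97, 7.94 and 8.07 in female pools and 7.68, 7.81 and 7.69 in male pools. The groups did not overlap. The difference was -0.27 (SE 0.08, limma adjusted p = 0.301), and its second probe set gave -0.26. SF3A1 had 9.43, 9.34 and 9.60 in female and 9.19, 8.95 and 9.35 in male pools. Male pool 3 lay just above female pool 2, with a difference of -0.29 (SE 0.12, limma adjusted p = 0.454) and -0.36 in the second probe set. It was -0.19 when male pool 2 was dropped.

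SF3B1, the large scaffold that closes on the branch point, showed no such offset: it had 10.76, 10.81 and 10.74 in female pools and 10.73, 10.77 and 10.90 in male pools. The interval of its difference was -0.15 to 0.20 around 0.03. It ran from -0.02 to 0.06 when 1 pool was dropped and was 0.13 by the probe set of smallest p. SF3B6, which lies close to the branch adenosine, had 10.32, 10.13 and 10.22 in female and 10.35, 10.26 and 10.32 in male pools, a difference of 0.09 (SE 0.08, limma adjusted p = 0.742), which was 0.04 when female pool 2 was dropped and 0.14 when female pool 1 was. SF3B5, a small subunit, was uneven within the females, at 5.72, 4.91 and 5.67, against 5.64, 5.24 and 5.77 in males. Pool 2 was the low one in both sexes, and the difference of 0.11 (SE 0.23) ran from -0.15, when female pool 2 was dropped, to 0.27, when male pool 2 was. SF3B3 gave -0.17 and SF3A3 -0.01.

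The PRPF proteins spanned the widest range, from -0.45 to 0.25, with 4 above and 5 below 0. PRPF8, the core protein around the catalytic centre of the spliceosome, had 10.77, 11.06 and 11.31 in female pools and 10.60, 10.47 and 10.74 in male pools. All male pools lay below all female pools, male pool 3 just below female pool 1, and the SD was 0.27 in females and 0.14 in males. The difference was -0.45 (0.734-fold, SE 0.14, limma adjusted p = 0.335), the largest in size among the members. Without female pool 3 it was -0.31, and without female pool 1 it was -0.58. All 3 probe sets of PRPF8 gave the same sign, at -0.45, -0.54 and -0.38.

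PRPF38A, which joins the spliceosome as it is activated, lay on the other side, with 8.03, 8.04 and 8.05 in female pools and 8.33, 8.29 and 8.26 in male pools. Both sexes were tight, with SDs of 0.01 and 0.03, and the groups were well apart. Its difference of 0.25 (SE 0.07) had the smallest adjusted p among the members, 0.243 (limma). It rests on a single probe set. PRPF38B, its relative, gave 5.92, 5.73 and 5.52 in female pools and 5.34, 5.58 and 5.56 in male pools, with overlap and a difference of -0.23 (SE 0.12, limma adjusted p = 0.564). It was -0.13 when female pool 1 was dropped and -0.15 when male pool 1 was.

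PRPF6, which bridges U5 to U4 and U6, had 10.06, 10.14 and 10.15 in female pools and 9.93, 9.75 and 10.09 in male pools. Male pool 3 overlapped the females, and the difference was -0.19 (SE 0.10, limma adjusted p = 0.560), or -0.10 when male pool 2 was dropped. PRPF4B, a kinase of splicing proteins, varied between the pools of each sex, with SDs of 0.36 and 0.56. It had 9.03, 8.86 and 8.34 in female pools and 8.43, 9.00 and 7.89 in male pools. The difference was -0.31 (SE 0.28, limma adjusted p = 0.762). It was -0.03 when male pool 3 was dropped, -0.16 when female pool 1 was, -0.51 when female pool 3 was and -0.59 when male pool 2 was. PRPF3 and PRPF4, partners on the U4 and U6 particle, gave 0.07 and 0.02, the ubiquitin ligase PRPF19 0.09 and PRPF18, which acts in the second step of splicing, -0.11. PRPF4 was near background, at a mean of 4.43. The dimmer probe sets of PRPF3, near or below background, gave 0.18, -0.21 and -0.09.

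**Figure D2:**
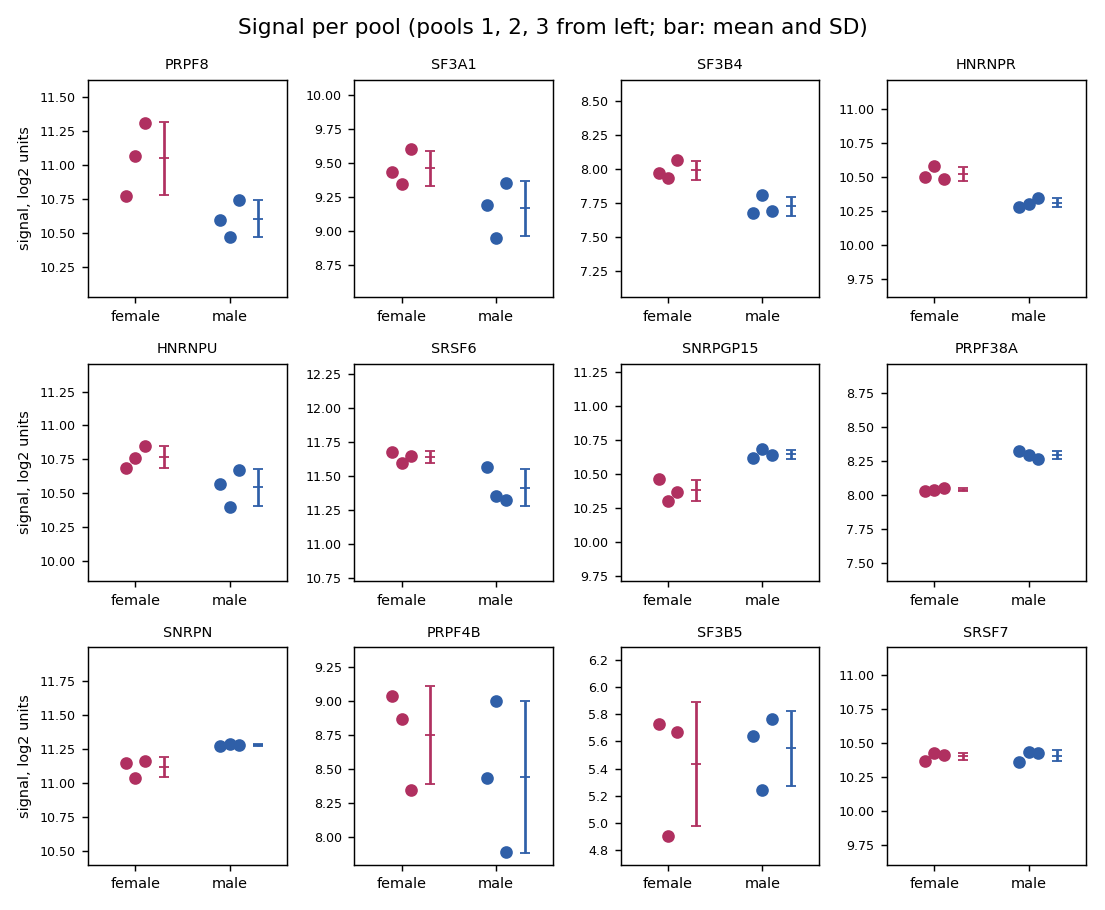
Signal in log2 units (y axis, 1.6 units in every panel) of 12 members in female and male pools 1, 2 and 3 (points from left to right), with the mean and SD of each sex as a bar. PRPF8, SF3B4 and HNRNPR have all male pools below the females, SNRPGP15, PRPF38A and SNRPN have them above, PRPF4B ranges from 7.89 to 9.03, and SRSF7 is almost flat.

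PRPF8 and PRPF6 are proteins of the U5 particle, whose other proteins on the array were looked at after the value of PRPF8 had been seen. SNRNP200, the helicase that unwinds U4 from U6, had 9.12, 9.43 and 9.66 in female pools and 8.64, 8.62 and 8.89 in male pools. Its male pools lay below all female pools, with a difference of -0.69 (SE 0.14) that did not pass (limma adjusted p = 0.143). In PRPF8 and SNRNP200 female pool 3 was the highest and female pool 1 the lowest of the females. That order was not particular to them: the U5 proteins PRPF6, EFTUD2 and SNRNP40 had it too, and TXNL4A did not. Its share over all genes was not counted. EFTUD2, a GTPase, gave -0.17 (SE 0.09), with -0.11 when male pool 1 was dropped and 0.69 in its probe set of smallest p, SNRNP40, a WD repeat protein, 0.02 (SE 0.08), and TXNL4A, a thioredoxin-like protein, 0.23 (SE 0.07, limma adjusted p = 0.310). The U5 proteins therefore did not share a side of 0.

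Averaged over the genes of a role, the deviations per pool were small. For the hnRNP proteins the mean deviation from each gene's own mean was 0.05, 0.03 and 0.04 in female pools and -0.05, -0.06 and -0.00 in male pools. For the snRNP proteins it was -0.04, -0.10 and 0.00 in female pools and 0.01, 0.06 and 0.07 in male pools. The sexes did not overlap in either role, with the hnRNP proteins higher in female pools and the snRNP proteins higher in male pools. In the snRNP proteins female pool 3 and male pool 1 lay close together, at 0.003 and 0.009. SNRPF, at background, is counted among these 10. The 8707 autosomal genes whose signal reached the median gave -0.005 to 0.020 in female and -0.014 to 0.002 in male pools. There the sexes overlapped. Whether the separation of a role exceeds that of other gene sets of its size was not tested. PRPF proteins gave 0.04 to 0.06 in female and -0.09 to -0.02 in male pools. SR proteins gave 0.007 to 0.036 and -0.049 to 0.005, so that the sexes nearly touched. The SF3 subunits overlapped, from -0.08 to 0.12 in female and from -0.12 to 0.03 in male pools, with pool 2 the lowest in both sexes. Over the same pools the 9 progenitor markers gave 0.06 to 0.12 in female and -0.11 to -0.08 in male pools. Of these 9, 1 had a difference above 0, and 1 passed (limma adjusted p under 0.05), where 0.923% of all and 0.0491% of autosomal genes did. These counts do not give the direction of the 1 that passed, which may be the 1 above 0. The 7 muscle markers, 3 of them above background, gave -0.11 to -0.03 and 0.05 to 0.09, and none passed. In the other marker sets the sexes overlapped. Neuron markers gave -0.08 to 0.23 in female and -0.21 to 0.01 in male pools. Markers of dividing cells gave 0.01 to 0.05 in female and -0.11 to 0.11 in male pools. Those of red blood cells, pigment cells and blood vessels overlapped as well. The part of these markers in the differences of the splicing genes was not tested.

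**Figure D3:**
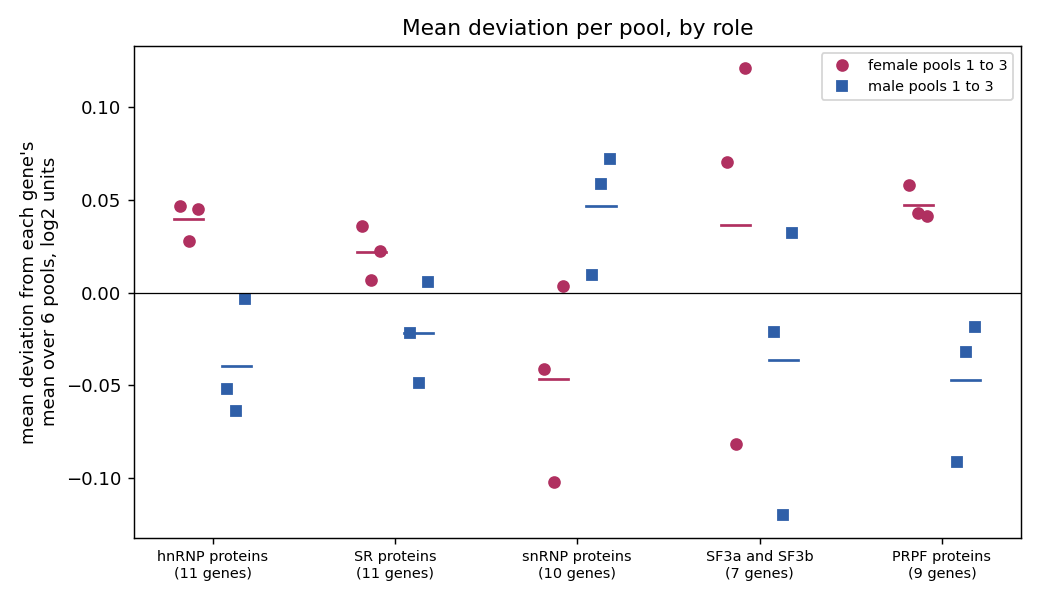
Mean deviation of each role's genes from their own mean over the 6 pools, in log2 units (y axis), for female pools (circles) and male pools (squares), with lines at the mean of each sex. Female pools lie above male pools for hnRNP and PRPF proteins and below them for snRNP proteins. For SR proteins the lowest female pool (0.007) and the highest male pool (0.005) nearly coincide. The SF3 subunits, which reach from -0.12 to 0.12, overlap.

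Most genes were seen by several probe sets, whose places on the transcript were not looked at and which may share probes. Of the 126 probe sets 113 had a mean above the viral background and none passed (smallest limma adjusted p = 0.243), against 0.554% of all chicken probe sets. Without adjustment 22 had a p under 0.05 (background 10.4%), 6 of them higher (5.26%) and 16 lower (5.17%) in males. Probe sets of 1 gene share its transcripts and are not independent. In 33 genes at least 2 probe sets stood above background, and in 18 of these all of them gave the same sign. PRPF8, SF3A1, SF3B4, SRSF6 and HNRNPU agreed in sign below 0, and SRSF3, SNRPA1 and SNRPC above it. HNRNPA1 had all 5 probe sets below 0, from -0.36 to -0.04, with the brightest the closest to 0.

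The probe sets of PRPF4B lay furthest apart. The 2 brightest gave -0.31 and -0.38, and 2 near background gave 0.13 and 0.03. For SRSF11 a dimmer probe set, at a mean of 5.81, gave 0.28 against -0.18 and -0.17 in the 2 brighter ones. For HNRNPH1 a probe set at 6.58 gave 0.18 against -0.14 and -0.18. For SNRPGP15 the probe sets at 10.51 and 8.12 gave 0.27 and 0.22, and the 3 dimmer ones gave 0.24, 0.01 and -0.05. Relatives that may share probes, such as SRSF5 and SRSF5A or SRSF7 and SRSF7L, are uncertain as separate values, and RefSeq lists HNRNPA3 as a synonym of HNRNPA1.

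**Figure D4:**
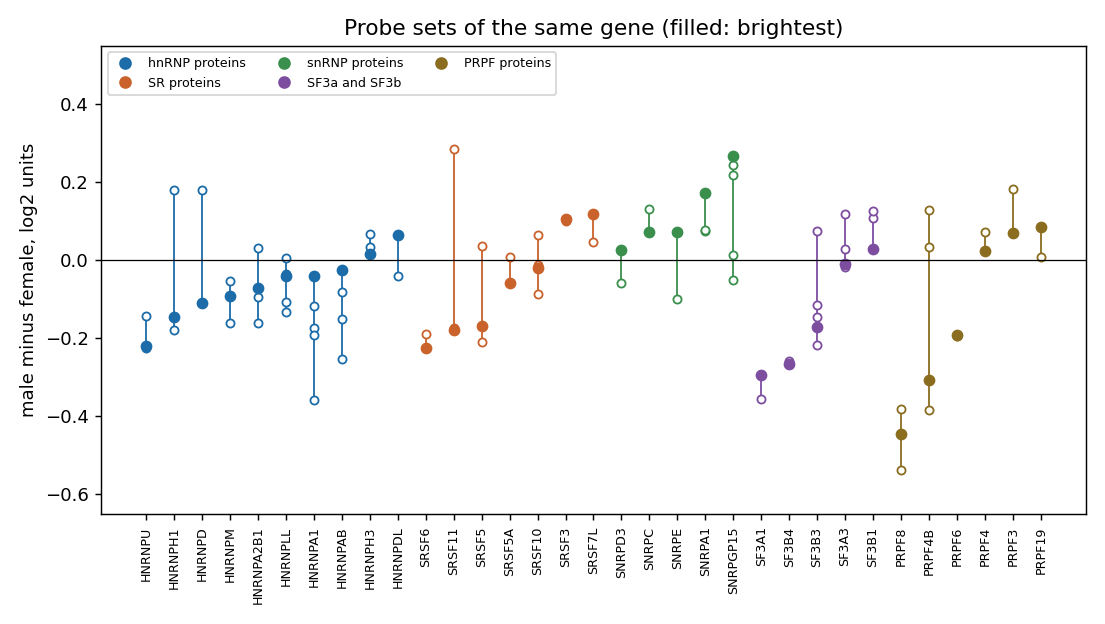
Male minus female difference in log2 units (y axis) of every probe set above background, for the 33 genes with at least 2 of them (x axis), coloured by role, with the brightest probe set filled. The probe sets of PRPF8 all lie between -0.54 and -0.38, those of SRSF3 coincide near 0.10, and those of PRPF4B, SRSF11 and HNRNPH1 fall on both sides of 0.

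The roles differ in the length of their genes, a feature the choice of members did not use. The median genomic span in the assembly GRCg7b was 3.52 kb for snRNP proteins, 6.66 kb for SR proteins, 6.88 kb for SF3 subunits, 13.5 kb for hnRNP proteins and 14.96 kb for PRPF proteins, over a range of 0.913 to 29.4 kb. Across the 48 genes the male minus female difference was lower in longer genes (Spearman's rho = -0.63), where rho was -0.38 across 8707 autosomal genes at or above the median signal. These genes share the same 6 arrays and are not independent replicates. SNRPGP15 spans 3.03 kb and PRPF38A 4.24 kb, while PRPF8 spans 18.0 kb, HNRNPR 21.8 kb and PRPF4B 26.6 kb. SF3B4, at 5.23 kb and -0.27, and SRSF6, at 5.00 kb and -0.22, are short genes below 0. Among long genes HNRNPLL (29.4 kb), HNRNPAB (27.7 kb) and SF3B1 (20.4 kb) lay near 0, at -0.04, -0.02 and 0.03. The difference between a 3' and a 5' probe set of actin, a measure of RNA integrity, was 0.29 to 0.44 in female and 0.36 to 0.58 in male pools, and that of GAPDH -0.39 to -0.34 and -0.42 to -0.39. The part of span and of RNA integrity in the sex differences was not tested.

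**Figure D5:**
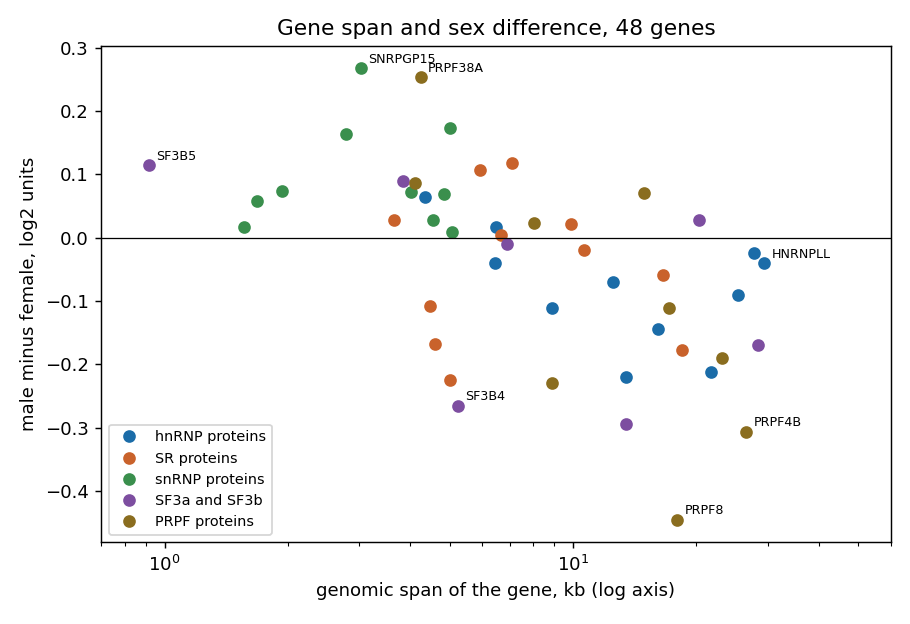
Male minus female difference in log2 units (y axis) against the genomic span of the gene in kb (log axis) for the 48 genes, coloured by role. The snRNP genes are short and lie above 0, while PRPF8 and PRPF4B, at 18.0 and 26.6 kb, lie lowest.

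Other genes of the pathway were counted from a list of 133 spliceosome components, splicing regulators and assembly factors, of which 109 were on the array. In all 3 passed, each higher in males, and none lower (limma adjusted p under 0.05), where 0.923% of all genes passed. Without adjustment, 24 of the 109 had a p under 0.05 (12.7% of all genes), and the male pools lay all above the females in 24 and all below in 9, against 12.0% and 7.06% of all genes. The 3 are Z-linked, and males carry an extra Z. Of 605 Z genes 17.2% passed higher in males. The part of Z copy number in these differences was not tested. PPWD1, a prolyl isomerase of the spliceosome, had 7.48, 7.37 and 7.28 in female pools and 8.26, 8.30 and 8.16 in male pools, a difference of 0.87 (SE 0.08, limma adjusted p = 0.00430). SREK1IP1, named for its binding to the SR-related protein SREK1, had 5.08, 5.15 and 5.07 in female and 5.87, 5.91 and 5.75 in male pools, a difference of 0.74 (SE 0.08, limma adjusted p = 0.00592). SMN, the assembly factor that loads Sm rings onto small nuclear RNA, had 8.53, 8.53 and 8.55 in female and 9.05, 9.20 and 9.11 in male pools, a difference of 0.58 (SE 0.07, limma adjusted p = 0.0148). In each of the 3 the sexes stood well apart.

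The call of SMN was lost on most removals of 1 pool, each of which leaves fewer arrays to the test. The adjusted p of PPWD1 rose on each removal too, and was highest without female pool 2, at 0.0355 (limma). Dropping female pool 1, 2 or 3 gave an adjusted p of 0.0748, 0.0894 or 0.0708, dropping male pool 2 or 3 gave 0.0544 or 0.0620, and only without male pool 1 was it kept, at 0.0471 (limma). The difference stayed between 0.54 and 0.62 over the 6 removals. That of SREK1IP1 was lost in the mean over its probe sets (0.46, limma adjusted p = 0.0591). The other 3 Z genes of the list did not pass: CWC27 gave 0.26, SMU1 0.06 and SREK1 0.02. On autosomes none of 103 listed genes passed (background 0.0491%). Without adjustment 13 were higher (5.5%) and 8 lower (5.59%) in males at a p under 0.05, and the median difference was 0.02.

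Of 20 listed hnRNP proteins with other symbols, such as PTBP1 and SYNCRIP, 14 were on the array and none passed (limma, background 0.923% of all genes). Without adjustment 1 had a p under 0.05 (12.7%), and 6 lay above and 8 below 0. PCBP2, which binds runs of C, had 5.87, 5.65 and 5.86 in female and 5.59, 5.66 and 5.43 in male pools. Male pool 2 overlapped female pool 2, and the difference was -0.23 (SE 0.10, limma adjusted p = 0.457). EWSR1, of the FET family, had 9.68, 9.60 and 9.75 in female pools and 9.54, 9.43 and 9.59 in male pools. Its male pools lay below all females, with a difference of -0.16 (SE 0.08, limma adjusted p = 0.545), or 0.01 by the mean over its probe sets.

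Over the 6 pools the range from the lowest to the highest pool was 0.07 to 1.15 with a median of 0.25, under 0.5 in 43 of 48 genes, where the median range of autosomal genes at or above the median signal was 0.36. The SD pooled over both sexes had a median of 0.08, against 0.12 in those genes. Set against the 500 autosomal genes nearest in signal, the members' pooled SD had a median percentile of 38.2, with 20 of 48 above the 50th, so that their spread was close to that of genes of like signal. PRPF4B had the largest pooled SD (0.47), followed by SF3B5 (0.38), PRPF8 (0.21), PRPF38B (0.17) and SF3A1 (0.17). For PRPF4B that SD exceeded the SD of 98.8% of the 500 autosomal genes nearest in signal.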

How the data were processed

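Total RNA of 6 brain pools was copied from oligo(dT) primers and hybridised to 1 array each, per the labels' protocols. The deposited values are log2 signals; the submitters' processing notes name RMA and affy, with no version. RMA equalises the arrays, which would take out any shift common to most genes, and it gives no detection call. Values of 2.28 to 14.1 fit a log2 scale. Precision rests on the 6 arrays.

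Of 38535 probe sets, 153 control and 689 viral probe sets were left out and 37693 chicken probe sets tested with limma 3.58.1 (R 4.3.3), lmFit and eBayes, sex the only term, two-sided, Benjamini-Hochberg adjustment, threshold 0.05. The test was also run on simulated data. SE is limma's, SD the spread over 3 pools; p-values measure the spread between pools. Genes were named from the platform annotation where it gives 1 symbol (27166 probe sets), and chromosome and span came from RefSeq (GRCg7b) by gene identifier.

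Named members were, per role, the 2 of smallest p and the 2 brightest, and overall the 5 largest differences in each direction, the 5 of largest spread and the 5 whose probe sets differed most; from the other lists, those that passed or the 2 of smallest p. No member passed or lies on Z or W, which the rule would also have named. Members, lists and this rule were chosen with earlier results of these data known. Lists were matched by symbol only. The 13 alternatives were other variance models and array weights, a replicate block, a signal filter, another scaling, other probe set choices and leaving out each pool.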

Additional observations from a re-analysis of the deposited data

How the results depend on the processing

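No member passed under any of the 13 alternatives (limma), with 6 to 12 of 48 at an unadjusted p under 0.05, and the smallest adjusted p of a named member was 0.127. The median difference over members was -0.0032 and moved to -0.0581 when each gene was read from its probe set of smallest p. Among the 23 named members 7 differences turned sign: SF3B1 (range -0.0196 to 0.0620 over the removals of 1 pool) and SRSF1 (-0.0240 to 0.0821) without male pool 3, SF3B5 (-0.150 to 0.269) without female pool 2, SNRPE (-0.10) and SRSF11 (0.28) by the probe set of smallest p, and SNRPE (-0.0122) and SRSF11 (0.0148) by the mean over probe sets. EWSR1 (0.0103) and EFTUD2 (0.15) turned by that mean, EFTUD2 (0.69) by the probe set of smallest p, and SNRNP40 (-0.0232 to 0.0540) without female pool 1 or male pool 3. Their causes were not tested. The other variance model, the block and the signal filter leave a fitted difference as it is, so its sign could not turn there. The count of other splicing genes was 2 to 3 without 1 pool.

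Pools of the same number are not said to be paired: the deviations of same-numbered pools correlated at 0.0473, 0.168 and 0.387, and female pool 1 correlated best with male pool 2 (0.126). With the replicate block 0 members, 4 other splicing genes (SNRNP200 added, limma adjusted p = 0.0465) and 0 of the other hnRNP proteins passed.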

Other observations

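Pool 3 was the lowest of its sex in both sexes in PRPF4B, alone of the 48 members, and the same order was looked for in other splicing genes after the values were known, with no test. It held in 23 of the 109 listed genes (21.1%), near the 16.2% of 12228 autosomal genes. Of the 10 listed genes with the largest pooled SD 8 had it, and so did 49.3% of the 604 autosomal genes whose pooled SD was at least as large as the smallest of those 10, so that it went with large spread well beyond splicing genes. PPIG, a cyclophilin with an arginine and serine rich tail, had 7.90, 7.63 and 7.29 in female pools and 7.19, 7.79 and 6.61 in male pools. LUC7L3, a relative of a U1 protein of yeast, had 7.57, 7.45 and 7.13 in female and 7.31, 7.53 and 6.78 in male pools. CWC22, which places the exon junction complex, had 5.86, 5.42 and 5.12 in female and 5.21, 6.01 and 4.46 in male pools. In each of these male pool 3 was the lowest and male pool 2 the highest of the males, as in PRPF4B. The SR-related SREK1, on the Z, had 8.96, 8.80 and 8.49 in female and 8.75, 9.31 and 8.25 in male pools. The 2 of the 10 without that order were LSM4 and RNPC3. U2SURP, CCAR1, PNISR and CWC27 were the other 4 with it.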
